A study of Mus musculus with 6 samples.

Results

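The BCL2 family of apoptosis regulators was examined in mouse embryonic fibroblasts exposed to erastin. The 10 genes considered were the anti-apoptotic members Bcl2, Bcl2l1, Bcl2l2 and Mcl1, the pore-forming effectors Bax, Bak1 and Bok, and the BH3-only members Bid, Bad and Bcl2l11. They were picked by name, as the rows of the count table whose Ensembl identifier carries one of these symbols in GENCODE M21. All 10 were found among the 43346 genes of the table, and all 10 were among the 14000 genes with enough reads to be tested.

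The cells were primary fibroblasts of C57BL/6 embryos in their 9th passage, and the labels name no genetic change. Both groups grew in serum-containing medium with 2-mercaptoethanol, a reducing thiol. One group received the solvent DMSO and the other 3 µM erastin, a compound that blocks cystine import through system xc- and is widely used to trigger ferroptosis, and RNA was taken after 24 h. Each group had 3 libraries of rRNA-depleted total RNA. The design text speaks of an experiment done in triplicate without saying whether the 3 came from separate cell preparations, so the p-values measure only the spread between these libraries, which may be technical.

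As background, BCL2 family proteins decide whether the outer mitochondrial membrane stays intact. BAX and BAK1 are the effectors that oligomerise into pores and release cytochrome c, and BOK is a related protein with pore-forming activity. BCL2, BCL-XL (the main product of Bcl2l1), BCL-W (Bcl2l2) and MCL1 hold the effectors and their activators in check. The BH3-only proteins sense damage: BID is cut by caspase-8 and links death receptors to mitochondria, BIM (Bcl2l11) binds all the protective members, and BAD binds BCL2, BCL-XL and BCL-W and is regulated by phosphorylation. Ferroptosis, driven by lipid peroxidation, is classically described as independent of BAX, BAK1 and caspases. Gene-level read counts show neither protein cleavage nor phosphorylation, and they cannot separate splice forms with opposite functions, such as the long and short products of Bcl2l1 and Mcl1.

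Total counts ran from 13333911 to 20509970 per library, of which 9262 to 16232 reads fell on the 10 genes. Over genes with at least 20 reads, pairs of libraries within a group differed by 11.0 to 19.2 units of chi-square per degree of freedom and pairs across groups by 78.0 to 123, and all 6 were kept as separate replicates because even the closest pair exceeded sampling noise. Levels are given as CPM, read counts scaled to a common library size with TMM factors (a trimmed mean of ratios that corrects for library composition). Fibroblast markers were abundant in every library (summed over 10 markers, 35400 to 38500 CPM in DMSO and 25500 to 26900 CPM in erastin libraries), and 8 of the 10 passed the test described next, all of them lower with erastin. Summed markers of epithelial cells (6 genes, 2.14 to 3.25 CPM in all libraries) and of blood cells and macrophages (5 genes, 9.49 to 17.9 CPM) were low in both groups. Of the 5 endothelial markers, 2, Kdr and Tek, were higher with erastin (the sum was 5.10 to 7.71 CPM in DMSO and 14.1 to 17.4 CPM with erastin). The others, Pecam1, Cdh5 and Emcn, stayed under 1 CPM in every library. Among 4 muscle and 5 neural markers, Des and Nes were higher (sums of 35.5 to 45.5 against 65.2 to 69.1 CPM, and of 77.4 to 93.9 against 98.7 to 119 CPM), with Myod1, Myog and Sox10 under 0.5 CPM. No marker of these lists was at 0 in all libraries, and the part of these shifts in the results on the family was not tested. In bulk RNA, fewer cells of a type and less RNA per cell cannot be told apart, and CPM are shares of a library rather than amounts per cell.

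Of the 10 BCL2 family genes, 6 passed the edgeR test of erastin against DMSO (adjusted p-value under 0.05), beside 43.1% of all genes tested. The 6 were split evenly: Bid, Bcl2l2 and Mcl1 rose and Bad, Bok and Bak1 fell (the background was 21.6% of genes higher and 21.5% lower). Their erastin and DMSO libraries did not overlap, which held for 52.5% of all genes (26.7% higher and 25.8% lower). The median log2 fold change of the 10 genes was 0.02, beside -0.0014 over all genes tested, and 6 of the 10 moved by less than 0.41 on the log2 scale, the median absolute change of all genes. Each role held a gene that passed and a gene that did not. Both anti-apoptotic genes that passed were higher, both effectors that passed were lower, and the BH3-only genes had 1 of each. The effector part of this split depends on the processing. Bak1 lost its call in 11 of 15 alternative fits described below, and a correction for base composition and length made Bax pass as higher.

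**Figure D1:**
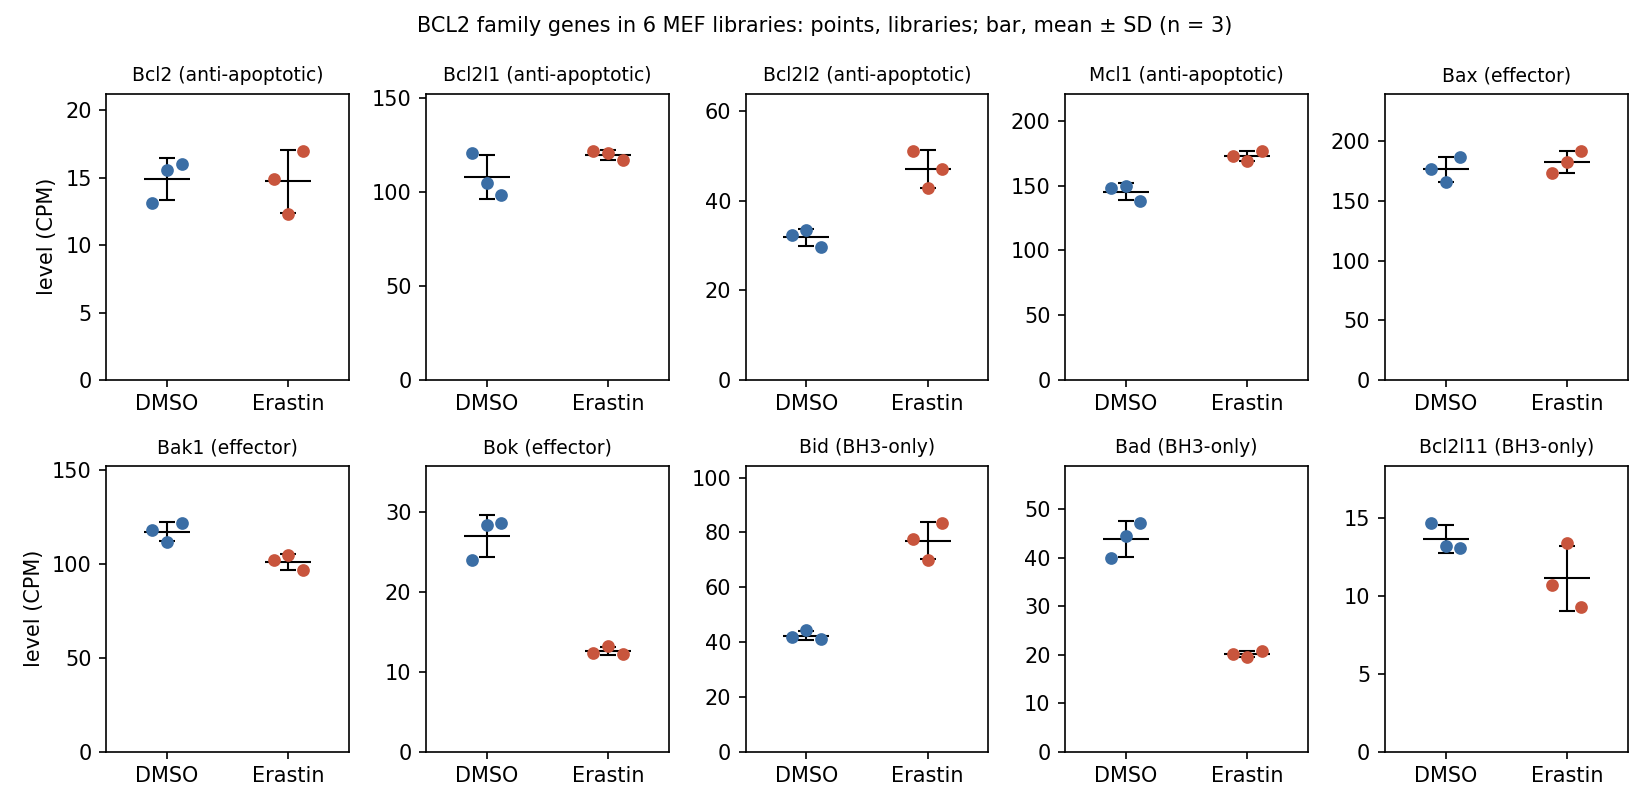
Level of each of the 10 BCL2 family genes (vertical axes, CPM, starting at 0) in the 3 DMSO and 3 erastin libraries; points are libraries and bars are the mean ± SD. The groups separate upward for Bcl2l2, Mcl1 and Bid and downward for Bak1, Bok and Bad, and they overlap for Bcl2, Bcl2l1, Bax and Bcl2l11.

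Among the anti-apoptotic genes, Bcl2l2 had the largest response. Bcl2l2 (ENSMUSG00000089682.5), the gene of BCL-W, lies on chromosome 14 from 54883377 to 54888234 on the plus strand in GRCm38. It was measured at 32.4, 33.4 and 29.8 CPM in DMSO replicates 1 to 3 and at 51.2, 42.8 and 47.2 CPM in erastin replicates 1 to 3. Every erastin library was above every DMSO library, and the level was 1.48-fold higher (log2 fold change 0.56, SE 0.11, adjusted p = 0.000655 by edgeR). The exons of Bcl2l2 share 594 of 4462 bases (13.3%) with Gm20521, a gene on the same strand that had 0 reads in all libraries. How reads in such shared stretches were counted is not given in the sources used here, so the level of Bcl2l2 may miss some of its reads.

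Mcl1 (ENSMUSG00000038612.12), whose short-lived protein restrains BAK1 in particular, occupies chromosome 3 from 95658788 to 95663176 on the plus strand. It stood at 148, 150 and 138 CPM in DMSO and at 173, 169 and 177 CPM in erastin libraries. The groups were separate but close, with a 1.19-fold rise (log2 fold change 0.25, SE 0.07, adjusted p = 0.0126 by edgeR). The adjusted p-value stayed under the threshold in all 15 alternatives run for it, though it reached 0.0493 when a single library was left out.

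The other two protective genes did not pass. Bcl2l1, which encodes BCL-XL, was measured at 121, 105 and 98.4 CPM in DMSO and at 122, 121 and 117 CPM with erastin. Its first DMSO library lay within the erastin range (log2 fold change 0.15, 95% interval -0.03 to 0.34, adjusted p = 0.178 by edgeR). Without DMSO replicate 1 the log2 fold change was 0.24 and the adjusted p-value 0.0458, and without DMSO replicate 3 they were 0.0903 and 0.451. Bcl2, the founding member of the family, was at 13.1, 15.6 and 16.0 CPM in DMSO and at 14.9, 12.3 and 17 CPM with erastin, 2 fully overlapping sets (log2 fold change -0.02, 95% interval -0.39 to 0.35, adjusted p = 0.947 by edgeR).

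Among the effectors, Bok fell to 0.468 times its DMSO level, while Bak1 fell slightly and Bax did not pass. Bok (ENSMUSG00000026278.10), at chromosome 1 from 93685660 to 93695764 on the plus strand, was measured at 23.9, 28.3 and 28.6 CPM in DMSO and at 12.4, 13.2 and 12.2 CPM in erastin libraries. All 3 erastin libraries lay far below the lowest DMSO library, and the log2 fold change was -1.10 (SE 0.14, adjusted p = 1.95e-05 by edgeR). Bax, whose protein moves from the cytosol to mitochondria, was at 177, 166 and 187 CPM in DMSO and at 173, 183 and 192 CPM with erastin. These values overlapped, with a log2 fold change of 0.05 (95% interval -0.12 to 0.21, adjusted p = 0.654 by edgeR). Of its exonic bases, 192 (12.2%) are shared with Gm45808 on the same strand, which is not among the genes of the count table.

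Bak1, the gene of the effector that sits constitutively in the outer membrane, was at 118, 112 and 122 CPM in DMSO and at 102, 105 and 96.8 CPM in erastin libraries. All erastin libraries were below all DMSO libraries, but the difference was small (log2 fold change -0.21, SE 0.08, adjusted p = 0.0429 by edgeR). It passed in only 4 of 15 alternatives, and in none of the 6 fits that left out 1 library (log2 fold changes of -0.245 to -0.179, adjusted p-values of 0.0539 to 0.118), in which 33.6% to 40.2% of all genes passed. The exons of Bak1 share 437 bases (18.2%) with Ggnbp1 on the opposite strand, which had 97 reads over all libraries. With the strand setting of the counting not given, reads in that stretch cannot be assigned to either gene.

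The calls of 3 genes changed with a correction for base composition and length. The longest Bax transcript has 1100 bases and 63.5% G and C. With an offset in each library for its fitted dependence on the GC content and length of transcripts, Bax passed as higher (log2 fold change 0.438, adjusted p = 0.000241 by edgeR) and Bak1 no longer passed (-0.0589, adjusted p = 0.579). Under the same offset Bcl2l1 passed as higher (0.293, adjusted p = 0.0125) and Bok stayed lower at -0.81. The family count was then 5 higher and 2 lower, where 41.5% of all 13937 genes tested passed and 51.4% of those were higher.

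**Figure D2:**
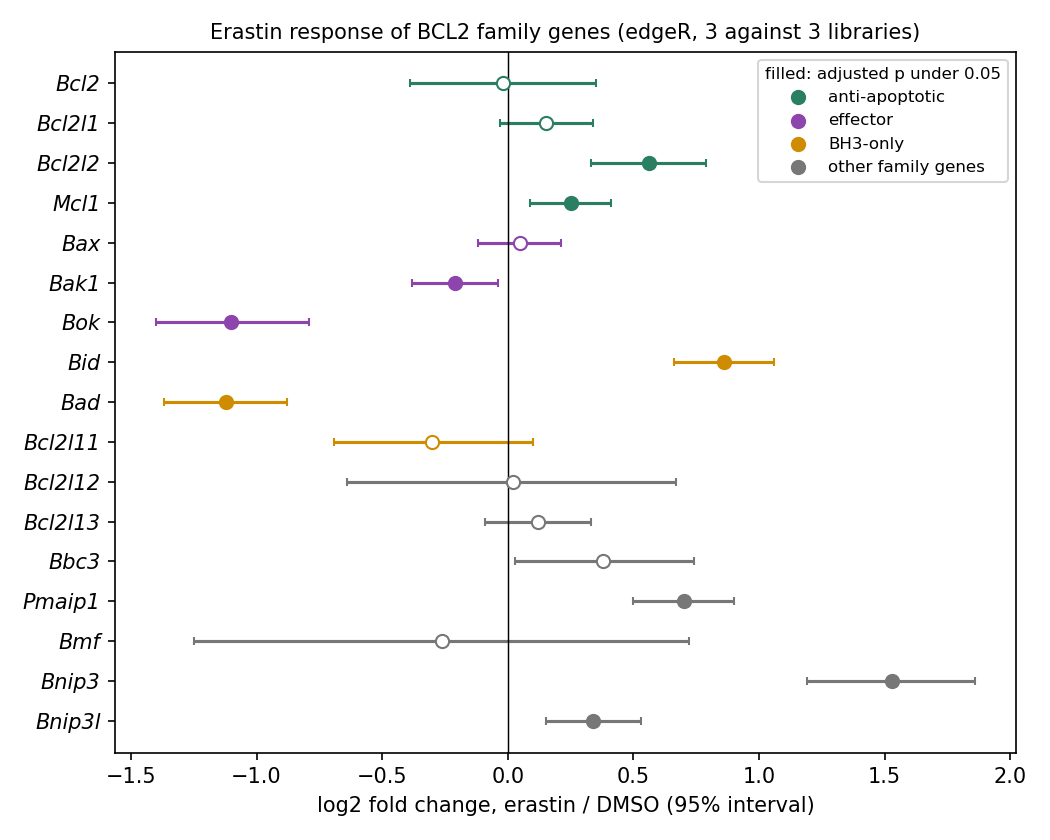
Log2 fold change of erastin over DMSO (horizontal axis) with its 95% interval for the 10 genes, coloured by role, and for 7 other tested genes of the family in grey; filled points have an edgeR adjusted p-value under 0.05. Bad (-1.12) and Bok (-1.10) lie farthest left among the 10 genes and Bid (0.86) farthest right.

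The BH3-only genes had the widest range of responses, with Bid and Bad moving in opposite directions. Bid (ENSMUSG00000004446.8), at chromosome 6 from 120891930 to 120916853 on the minus strand, was measured at 41.8, 44.3 and 41.1 CPM in DMSO and at 77.5, 69.9 and 83.5 CPM in erastin libraries. The lowest erastin library exceeded the highest DMSO library by a wide margin, and the level was 1.82-fold higher (log2 fold change 0.86, SE 0.10, adjusted p = 4.36e-06 by edgeR). Exons of Bid overlap those of Bcl2l13 on the opposite strand over 628 bases, 17.7% of the exonic bases of Bid. The strand setting of the counting is not given in the sources used here. Reads from Bid and Bcl2l13 thus cannot be told apart within that stretch. Bcl2l13 itself, which encodes a mitochondrial BCL2-like protein, was at a mean of 50.6 CPM in DMSO and 54.9 CPM with erastin and did not pass (log2 fold change 0.12, adjusted p = 0.368 by edgeR).

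Bad (ENSMUSG00000024959.9), at chromosome 19 from 6941861 to 6951899 on the plus strand, was measured at 40, 44.4 and 47.2 CPM in DMSO and at 20.1, 19.5 and 20.8 CPM in erastin libraries. All 3 erastin libraries were well below the lowest DMSO library, and the log2 fold change of -1.12 (SE 0.11, adjusted p = 1.79e-06 by edgeR) was the largest of the 10 genes in either direction. Of the exonic bases of Bad, 524 (20.5%) are shared with Gpr137 on the opposite strand, and Gpr137 was lower too, from a mean of 21.7 to 13.6 CPM (log2 fold change -0.67, SE 0.18, adjusted p = 0.00706 by edgeR). Whether the counting used the strand is not given in the sources used here, so reads from the pair cannot be told apart within that stretch.

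Bcl2l11 is the gene of the potent activator BIM. Its values were 14.7, 13.2 and 13.1 CPM in DMSO and 10.7, 13.4 and 9.28 CPM in erastin libraries. Erastin replicate 2 lay within the DMSO range, and the difference did not pass (log2 fold change -0.30, 95% interval -0.69 to 0.10, adjusted p = 0.218 by edgeR).

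The promoters of the genes with the largest changes are shown to let the sequences be read beside the responses: Bid and Bcl2l2, which rose, and Bok and Bad, which fell. The sequences are from RefSeq on GRCm38.p6, 5′ to 3′ on the gene's own strand, and cover up to 250 bases before the RefSeq start site, cut where a GENCODE M21 exon begins. Capitals mark the GC box, GGGCGG on either strand, and in Bid a further match 33 bases before the start runs past the printed end.
Bid promoter, chr6:120916854-120917074, strand -: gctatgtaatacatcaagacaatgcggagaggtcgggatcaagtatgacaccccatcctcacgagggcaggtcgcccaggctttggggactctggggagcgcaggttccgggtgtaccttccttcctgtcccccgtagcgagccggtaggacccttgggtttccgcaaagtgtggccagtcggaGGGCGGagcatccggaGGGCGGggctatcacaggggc
Bcl2l2 promoter, chr14:54883175-54883376, strand +: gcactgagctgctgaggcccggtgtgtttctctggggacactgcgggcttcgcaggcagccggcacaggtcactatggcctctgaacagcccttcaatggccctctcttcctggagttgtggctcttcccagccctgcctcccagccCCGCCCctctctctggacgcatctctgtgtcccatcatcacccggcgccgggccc
Bok promoter, chr1:93685325-93685574, strand +: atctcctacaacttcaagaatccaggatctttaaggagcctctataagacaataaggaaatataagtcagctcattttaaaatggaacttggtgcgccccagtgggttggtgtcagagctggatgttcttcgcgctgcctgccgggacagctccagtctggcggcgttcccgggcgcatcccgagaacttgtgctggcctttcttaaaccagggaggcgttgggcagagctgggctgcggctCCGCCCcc
Bad promoter, chr19:6941611-6941860, strand +: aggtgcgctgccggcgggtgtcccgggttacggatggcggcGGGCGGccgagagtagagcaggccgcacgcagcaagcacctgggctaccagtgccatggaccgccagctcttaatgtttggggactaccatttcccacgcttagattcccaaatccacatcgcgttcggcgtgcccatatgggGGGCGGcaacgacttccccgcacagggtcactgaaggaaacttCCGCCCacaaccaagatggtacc

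All 4 of these windows hold a GC box. Bad is shown at the first of its 2 RefSeq start sites, and the window of the other holds none. The 250-base windows of all 10 genes, 14 windows since some genes have several start sites, were searched on both strands for 7 motifs, and no matches overlapped within a window. A GC box was found in 9 of 14 windows (64.3%), beside 32.7% of 32851 mouse windows of the same length. These windows belong to 8 of the 10 genes, for which no share per gene over all genes is given. Windows of like GC content were not compared. CCAAT was found in 3 windows (Bad and Bcl2l11; 33.8% of all windows), CACGTG, the E-box, in 1 (Bax; 6.02%) and the antioxidant response element TGACNNNGC in 1 of the 3 Bcl2l1 windows (10.2%). None of the 14 windows held TATAAA (12.4% of all windows), the cAMP response element TGACGTCA (1.55%) or the C/EBP-ATF response element TGATGNAA (3.45%). These matches describe letters and not binding, and no match says only that the letters are not in this window.

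Levels of different genes were compared only per length, as CPM per kilobase of the longest transcript, which understates a gene that mainly makes a shorter one. In DMSO Bax led at 161 ± 9.49 CPM per kb (SD, n = 3) and made up 43.2% of the summed level of the 10 genes. Bak1 followed at 49.1 ± 2.14, then Mcl1 at 42.5 ± 1.88 and Bcl2l1 at 42.0 ± 4.47, a pair that did not differ beyond its spread, then Bad at 28.6 ± 2.37. Bok at 18.4 ± 1.82 and Bid at 17.6 ± 0.696 overlapped, and Bcl2l2 stood at 8.36 ± 0.483. Bcl2l11 at 2.71 ± 0.175 and Bcl2 at 2.07 ± 0.222 CPM per kb closed the order of the 10 genes.

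With erastin the ends of this order were the same and its middle differed. Bax was again first, at 166 ± 9.03 CPM per kb, and Mcl1 at 50.6 ± 1.12 and Bcl2l1 at 46.7 ± 0.982 now stood above Bak1 at 42.4 ± 1.68 (SD, n = 3 each). In DMSO, Bcl2l1 and Bak1 had overlapped (Bcl2l1 at 47 in replicate 1, Bak1 at 46.8 in replicate 2). The change of Bcl2l1 did not pass, and the call of Bak1 was lost in most alternatives. Bid, at place 7 of 10 in DMSO, was at place 5 with 31.9 ± 2.82. Bad at 13.1 ± 0.454 and Bcl2l2 at 12.3 ± 1.10 overlapped, followed by Bok at 8.59 ± 0.372, and Bcl2l11 at 2.21 ± 0.417 and Bcl2 at 2.05 ± 0.326 CPM per kb overlapped at the bottom.

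**Figure D3:**
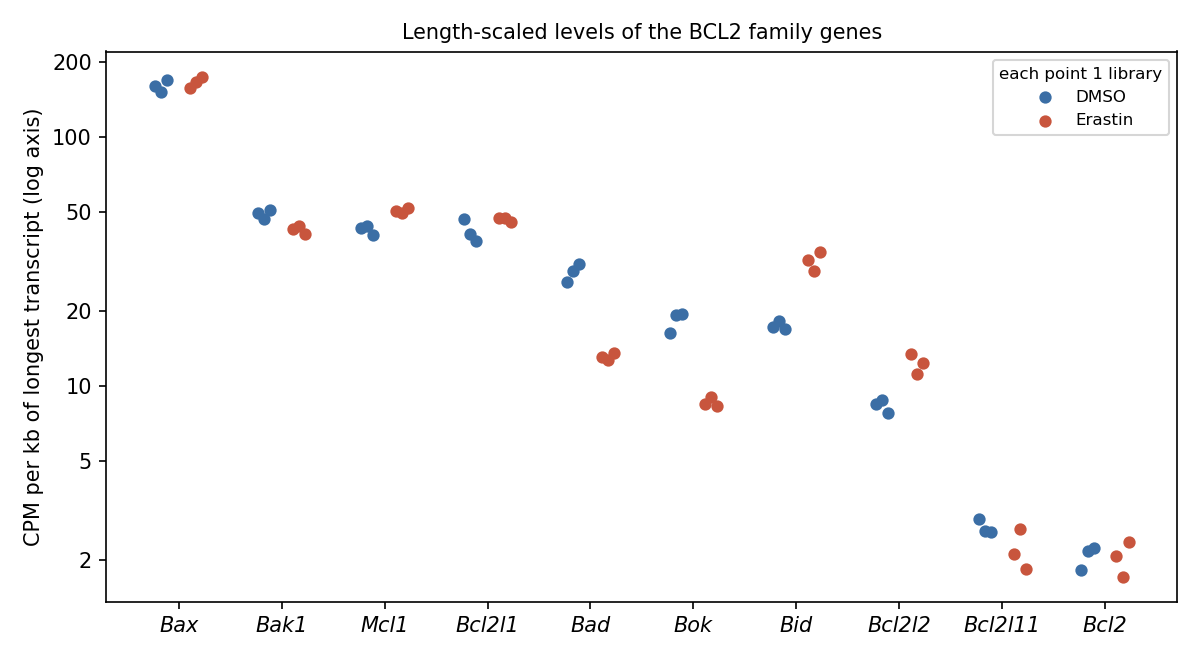
CPM per kilobase of the longest transcript (log axis) for the 10 genes in order of their DMSO mean; each point is 1 library, DMSO in blue and erastin in red. Bax is the most abundant in every library, from 151 to 175 CPM per kb, while Bid rises past Bad and Bok.

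Summed by role, the protective genes had 101, 95.6 and 88.7 CPM per kb in the DMSO libraries and 113, 110 and 112 in the erastin libraries, so their sums did not overlap. The effectors summed to 227, 217 and 241 CPM per kb in DMSO and to 208, 220 and 224 with erastin, which overlapped. The BH3-only genes summed to 48.9 ± 2.23 and 47.2 ± 2.86 CPM per kb (SD, n = 3 each), the rise of Bid and the fall of Bad leaving sums that overlapped. In shares of the family total, the protective genes held 25.5% ± 1.9 in DMSO and 29.7% ± 0.921 with erastin, the effectors 61.3% ± 1.81 and 57.7% ± 1.21, and the BH3-only genes 13.1% ± 0.694 and 12.6% ± 0.601. These sums are descriptions of messenger RNA and were not tested. The levels in them carry no GC and length offset, under which Bax passed as higher (0.438) and Bak1 did not pass (-0.0589). The sums and shares were not computed with that offset.

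The other genes of the family were taken as a list of 15, of which 7 had enough reads to be tested. Of these, 3 passed, all of them higher, and the median log2 fold change of the 7 was 0.34. The share that passed, 42.9%, was near the 43.1% of all genes. Bnip3, whose product acts in mitophagy and is known as a hypoxia target, had the largest change and went from 15.8, 13.4 and 16.7 CPM to 43.6, 53.7 and 34.8 CPM (log2 fold change 1.53, SE 0.16, adjusted p = 2.14e-06 by edgeR). Its relative Bnip3l rose from 55.9 ± 3.95 to 70.8 ± 1.96 CPM (mean ± SD of 3 libraries, log2 fold change 0.34, adjusted p = 0.00636 by edgeR); after the GC and length offset it did not pass (0.23, adjusted p = 0.0598). Pmaip1, the gene of NOXA, the BH3-only partner of MCL1, was at 69.1, 59.1 and 61.6 CPM in DMSO and at 101, 96.8 and 111 CPM with erastin, a separated 1.63-fold rise (log2 fold change 0.70, SE 0.09, adjusted p = 2.4e-05 by edgeR).

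Bbc3, which encodes PUMA, an activator under p53 control, was at 27.0, 28.2 and 16.7 CPM in DMSO and at 31.8, 29.5 and 32.8 CPM in erastin libraries. The groups did not overlap but DMSO replicate 3 was far below the other two, and the difference did not pass (log2 fold change 0.38, 95% interval 0.03 to 0.74, adjusted p = 0.075 by edgeR). It did pass in 5 of 15 alternatives, with a log2 fold change of 0.79 after the GC and length offset (adjusted p = 0.00151) and of 0.52 without DMSO replicate 2 (adjusted p = 0.0422). Without DMSO replicate 3 the log2 fold change was 0.183 (adjusted p = 0.266 by edgeR). Bmf, a BH3-only gene tied to the cytoskeleton, had 2.58 ± 0.47 and 2.15 ± 1.12 CPM, Bcl2l12 had 4.23 ± 0.609 and 4.28 ± 0.86 CPM (SD, n = 3 each), and neither passed, with intervals of -1.25 to 0.72 and of -0.64 to 0.67 on the log2 scale.

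The 8 genes of that list that could not be tested were at or near the detection floor. Bcl2a1a, Bcl2a1b, Bcl2l10 and Bik had 0 reads in all 6 libraries, which allows at most 3 reads per library, or 0.14 to 0.23 CPM (counting error only). Bcl2a1d, Bcl2l14, Bcl2l15 and Hrk had 1 to 9 reads in a library at most, 9 for Hrk in erastin replicate 3. The 3 Bcl2a1 genes are near-identical copies, so reads that match several of them could have been left uncounted.

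All 22 genes listed for the mitochondrial caspase pathway were tested. In this list 4 rose and 2 fell (27.3% of the list passed, against 43.1% of all genes), with a median of -0.07. Birc5, the gene of survivin, fell from 12.3 ± 2.34 to 1.11 ± 0.608 CPM (mean ± SD of 3 libraries, log2 fold change -3.47, SE 0.37, adjusted p = 2.99e-06 by edgeR). Survivin works in mitosis and has been described as a caspase inhibitor. Vdac3, a channel of the outer mitochondrial membrane, rose from 36.0 ± 0.93 to 58.2 ± 5.97 CPM (log2 fold change 0.70, adjusted p = 7.12e-05 by edgeR), and Diablo, whose product is released with cytochrome c and blocks caspase inhibitors, rose from 26.5 ± 3.82 to 46.1 ± 4.67 CPM (0.79, adjusted p = 0.000141 by edgeR). Cycs, the gene of cytochrome c (0.65), and Aifm1 (0.40) also rose, both named after their values were seen. The remaining 16 genes, with Apaf1, Casp9, Xiap, Vdac1 and Vdac2 among them, did not pass.

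Of 11 genes of the death receptor and necroptosis pathway, 4 rose and 2 fell (54.5% passed, against 43.1% of all genes), with a median of -0.03. Cflar, the gene of the caspase-8 inhibitor FLIP, rose from 83.2 ± 7.92 to 120 ± 9.06 CPM (mean ± SD of 3 libraries, log2 fold change 0.53, SE 0.09, adjusted p = 0.000294 by edgeR), and Ripk3, a necroptosis kinase, from 136 ± 6.62 to 180 ± 1.67 CPM (0.40, adjusted p = 0.000447 by edgeR). Fas, a death receptor, fell from 15.6 ± 2.31 to 7.24 ± 1.93 CPM (-1.11, SE 0.22, adjusted p = 0.000717 by edgeR). Tnfrsf10b, the gene of a TRAIL death receptor, rose from 73.6 ± 3.65 to 98.0 ± 4.9 CPM (0.41, adjusted p = 0.00112 by edgeR; chosen after its values were seen). Casp8, whose protein cleaves BID, was at 24.9 ± 5.1 and 19.0 ± 0.938 CPM and did not pass (-0.39, adjusted p = 0.0538 by edgeR; chosen after its values were seen). The count of genes that fell was between 1 and 4 when 1 library was left out, 4 of them without DMSO replicate 3 and 1 without DMSO replicate 2, erastin replicate 1 or erastin replicate 3.

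A list of 12 known regulators of these genes and their proteins had 11 tested genes, of which 4 rose and 2 fell (54.5% passed, against 43.1% of all genes, with a median of 0.10). Atf4, the transcription factor of the integrated stress response, rose from 217 ± 17 to 414 ± 9.52 CPM (mean ± SD of 3 libraries, log2 fold change 0.93, SE 0.07, adjusted p = 1.66e-07 by edgeR). Foxo1 and Foxo3, transcription factors known to act on Bcl2l11, rose with log2 fold changes of 0.68 (adjusted p = 0.000808 by edgeR) and 0.38 (adjusted p = 0.00139 by edgeR). The other 3 that passed, named after their values were seen, were Ddit3 (0.38), which encodes CHOP, and the dynein light chain genes Dynll1 (-0.43) and Dynll2 (-0.30), whose products tether BIM and BMF. Trp53 did not pass (0.14), nor did the genes of the MCL1 ubiquitin ligases and deubiquitinase, Huwe1 (0.08), Fbxw7 (0.10), March5 and Usp9x (-0.11). Trp73 was at most at 0.18 CPM and was not tested. The count of genes that fell was 1 without DMSO replicate 1 or without erastin replicate 1.

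**Figure D4:**
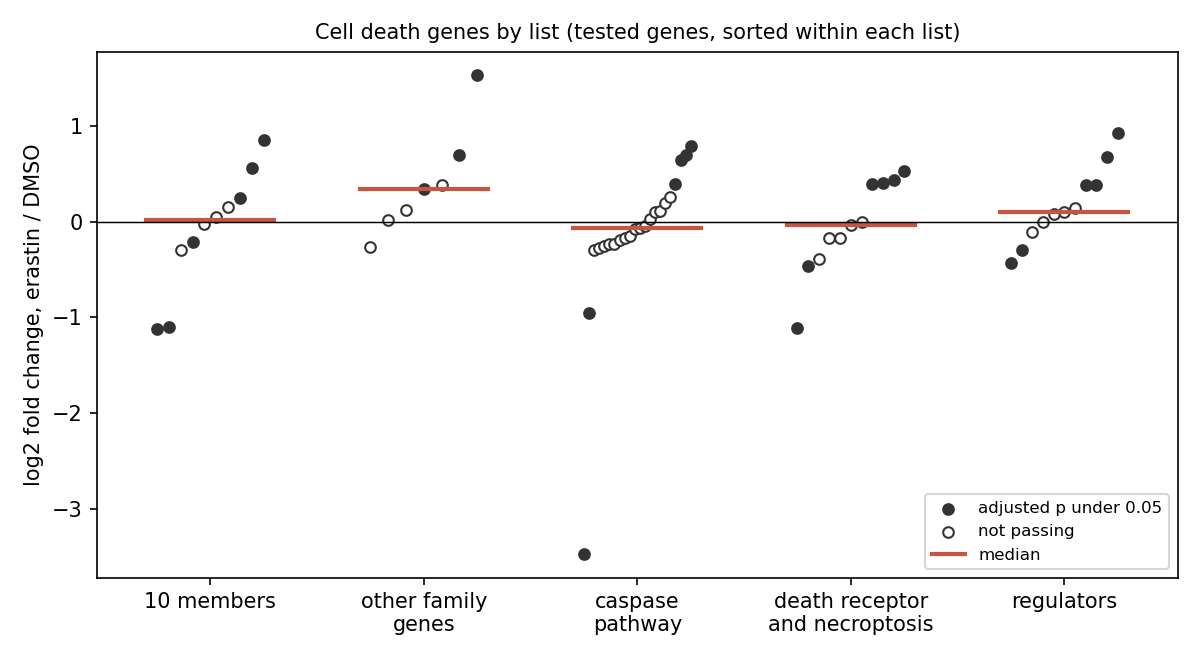
Log2 fold change of erastin over DMSO (vertical axis) for the tested genes of the 10-gene family set and of 4 related lists, sorted within each list; filled points have an edgeR adjusted p-value under 0.05 and red lines are medians. All medians lie between -0.07 and 0.34, and the lowest point is Birc5 at -3.47.

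The gene of the 10 with the largest absolute change, Bad, was compared with all tested genes of at least 50 mean reads by the root mean square distance between their log2 CPM profiles over the 6 libraries, each centred on its mean. The nearest were Idh2, a mitochondrial NADP-dependent isocitrate dehydrogenase (distance 0.0337, log2 fold change -1.06), Tenm3 (0.0410, -1.08) and Ptk7 (0.0549, -1.04). This is a likeness of profiles over 6 libraries in 2 groups and carries no test.

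**Figure D5:**
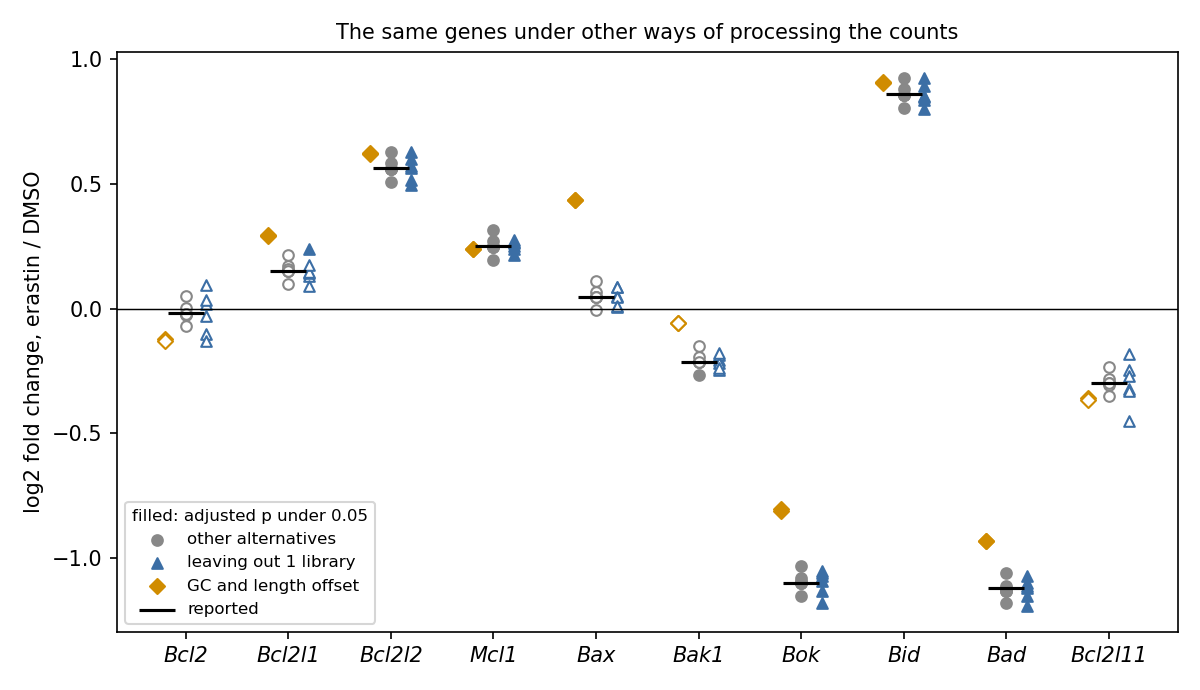
Log2 fold change of erastin over DMSO (vertical axis) for each of the 10 genes as reported (black bar) and under 15 alternatives per gene: other scalings, filters, the replicate block and DESeq2 (circles), leaving out 1 library (triangles) and the GC and length offset with and without the block (diamonds); filled symbols have an adjusted p-value under 0.05. Bcl2l2, Mcl1, Bok, Bid and Bad stay filled throughout, whereas Bax is filled only with the offset and Bak1 in 4 of its 15 alternatives.

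Across these alternatives Bid, Bad, Bok, Bcl2l2 and Mcl1 passed in the reported direction in all 15 fits each. The log2 fold change of Bid ran from 0.801 to 0.926, that of Bad from -1.19 to -0.932, that of Bok from -1.18 to -0.804, that of Bcl2l2 from 0.497 to 0.629 and that of Mcl1 from 0.197 to 0.316. Bcl2l11 and Bcl2 did not pass in any of them.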

How the data were processed

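RNA from 3 DMSO and 3 erastin libraries of mouse embryonic fibroblasts was sequenced on an Ion Proton instrument after rRNA depletion, per the labels' protocols. The authors deposited 1 table of whole-number read counts per gene without normalization; HTSeq 0.9.1, SAMtools and the build mm10 are named in the submitters' processing notes, and the aligner and the strand setting are not given in the sources used here. Of 43346 identifiers, 42462 (98%) had a GENCODE M21 symbol; coordinates and lengths are from M21 (GRCm38, the build mm10). Columns were matched through sample numbers in the labels, and 0 columns were left unused.

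Counts were filtered with filterByExpr (minimum count 10 in 3 libraries, total 15), scaled with TMM and tested with edgeR 4.0.16 (glmQLFit, glmQLFTest, treatment as the only term) in R 4.3.3. P-values were Benjamini-Hochberg adjusted over the 14000 genes and called under 0.05. Standard errors and 95% intervals came from the fitted weights and posterior quasi-dispersion; the fit was tested on simulated data. Alternatives used RLE, upper-quartile or total-count scaling, other filters, a replicate block, DESeq2 1.42.0, a GC and length offset (mgcv 1.9.3), each library left out, and stricter calls.

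The text names the 10 genes, the tested genes of the other-family list, the 3 smallest p-values of each further list and the 3 profiles nearest to the member with the largest change. Some results of the caspase list are not reported here. The members and lists were chosen with earlier results of these data known. PCR duplicates could not be counted, so the floor of 3 reads covers counting error only.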

Additional observations from a re-analysis of the deposited data

How the results depend on the processing

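Of 150 alternative values for the 10 genes, 128 kept direction and call. Those of Bak1 lost the call in 11 of 15 alternatives. Bcl2, reported at -0.02, was 0.0509 with scaling by total count only and 0.00297 without the filter on low counts, and ran from -0.128 to 0.0956 over the fits leaving out 1 library. Bax was -0.00569 and Bcl2l12 -0.0368 with upper-quartile factors, and Bcl2l12 ran from -0.0985 to 0.174 when 1 library was left out. The count of family genes that rose was 5 under the GC and length offset and 5 when the replicate block was added to it, against 3 reported. When glmTreat required a change beyond 0.5 on the log2 scale, 3 of the 10 passed, 1 of them higher. The share of all genes that passed this stricter test is not given here, so that count has no background beside it. Leaving out 1 library gave 5 to 6 passing, 3 to 4 higher and 2 lower. Genes that fell in the caspase list were 4 with upper-quartile factors. In the death receptor list those that fell were 4 with upper-quartile factors, 1 with scaling by total count only, 1 without the filter and 1 to 4 when 1 library was left out. In the regulator list they were 1 with scaling by total count only and 1 to 2 when 1 library was left out. The cause of these movements was not tested. With the median length of protein-coding transcripts in place of the longest, the protective share with erastin was 31.6%, the effector shares were 57.6% in DMSO and 53.6% with erastin, and the BH3-only shares 15.5% and 14.8%.

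Over all genes, the higher share among calls was 50.2% as reported, 57.1% with scaling by total count only and 44.0% with upper-quartile factors. Under the replicate block 5882 genes and 5 of the 10 family genes passed, Bak1 being lost (-0.212 as reported, adjusted p = 0.0688). Deviations of equally numbered libraries correlated at 0.0955, -0.00216 and -0.0239, and not every library correlated best with its own number, so the numbers were not used to pair libraries. Low counts limit Bmf, Bcl2l12 and the untested genes.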
